A study of Mus musculus with 44 samples.

Results

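The repressor genes of the circadian clock, *Per1*, *Per2*, *Per3*, *Cry1*, *Cry2*, *Ciart* and *Bhlhe40*, were followed in antigen-presenting cells sorted from the lymph nodes that drain the site of an injection of tumour cells or of PBS. They are named by symbol, as the genes of the clock's negative limb, and all of them are described. All 7 were found among the 14699 genes of the deposited table, and all 7 were among the 11963 genes that reached 1 CPM (reads on a gene, scaled so that each library adds up to 1000000) in at least 5 of the 44 libraries and were tested. The cells were CD45+CD11c+MHCIIhigh cells of the draining nodes of young adult female mice, which were brought to their phase of the light–dark cycle in light-tight cabinets, and each library came from 1 mouse. Nodes were collected the day after an injection at ZT3, ZT9, ZT15 or ZT21 (Zeitgeber time, hours after lights on), so that the time of injection and the time of collection were the same. Control mice (labelled WT) received B16-F10-OVA melanoma cells, which express ovalbumin (5 mice per timepoint), mice labelled KO received the same cells (3 per timepoint), and sham-injected WT mice received PBS (3 per timepoint). Mice labelled KO carry 2 floxed alleles of *Arntl*, the gene for the activator BMAL1, and a Cre driven by *Clec9a*, which acts in conventional dendritic cells (DCs) and their precursors, so that deletion is not directed to other cells of the node. The labels do not say whether mice labelled WT carry the floxed alleles without Cre.

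In the mammalian clock, the heterodimer of BMAL1 and CLOCK binds E-boxes and drives the genes for its own repressors. PER and CRY proteins accumulate, enter the nucleus together and inhibit BMAL1–CLOCK until they are degraded, which closes the loop in about a day, and CIART (CHRONO) and BHLHE40 (DEC1) also repress BMAL1–CLOCK targets. *Per1* and *Bhlhe40* are in addition induced quickly by outside stimuli, *Per1* through cAMP and glucocorticoid signals and *Bhlhe40* in activated immune cells.

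The genes lie on 7 different chromosomes. In the RefSeq annotation of GRCm38.p6, *Per1* spans chr11:69095108-69109965, *Per2* chr1:91415977-91459351, *Per3* chr4:150997018-151044707, *Cry1* chr10:85131700-85185054, *Cry2* chr2:92403646-92434085, *Ciart* chr3:95878500-95882257 and *Bhlhe40* chr6:108660629-108666925. Exons of D930015M05Rik on the opposite strand overlap exons of *Cry2* by up to 149 bases, and exons of 0610040F04Rik on the opposite strand overlap those of *Bhlhe40* by up to 118 bases, and the library kit does not mark strand. Reads on these stretches cannot be assigned to one gene of a pair. The deposited values were whole multiples of 1 read in all 44 libraries for *Per1*, *Per2*, *Cry1* and *Ciart*, but not in 30 libraries for *Cry2*, 4 for *Bhlhe40* and 2 for *Per3*.

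Promoter sequences of RefSeq were at hand for 5 of the 7 genes, namely *Per1*, *Per3*, *Cry1*, *Cry2* and *Ciart*, with 2 starts for *Per1*. Both *Per1* windows lie inside the span of the gene given above, and the stretch before its 5′ end was not searched. Motifs were searched on both strands in the 250 bases before each start. The canonical E-box CACGTG, the element bound by BMAL1–CLOCK, occurred 3 times before *Ciart*, once before *Cry1* and once before the first of the *Per1* starts, and not in the windows of *Cry2*, *Per3* and the second *Per1* start. Of 32851 promoters of the same length, 6.02% held it. The D-box TTATGNAA, the element of DBP, TEF, HLF and NFIL3, occurred 2 times before *Per3* and once before the first *Per1* start, against 3.07% of all promoters. The variant CACGTT was found once before *Cry1* and once before *Cry2* (3.85% of all promoters), the core AGGTCA of REV-ERB once before *Per1* (14%), and the cAMP element TGACGTCA in none of these windows (1.55%). A match describes the letters only. The stretches that hold the E-boxes and D-boxes are printed because the genotype compared here concerns BMAL1, which binds the first, and because *Dbp*, whose product binds the second, serves as a comparison further on. The motif is in capitals, and each stretch reads 5′ to 3′ on the strand of its gene in GRCm38.p6:
*Ciart*, E-boxes (chr3:95882253-95882358, minus strand): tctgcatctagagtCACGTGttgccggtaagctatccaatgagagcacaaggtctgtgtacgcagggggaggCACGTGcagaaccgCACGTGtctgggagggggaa
*Cry1*, E-box (chr10:85185095-85185128, minus strand): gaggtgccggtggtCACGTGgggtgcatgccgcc
*Per1*, E-box (chr11:69098769-69098802, plus strand): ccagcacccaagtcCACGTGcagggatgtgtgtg
*Per1*, D-box (chr11:69098911-69098946, plus strand): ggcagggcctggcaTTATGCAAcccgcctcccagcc
*Per3*, D-boxes (chr4:151044802-151044884, minus strand): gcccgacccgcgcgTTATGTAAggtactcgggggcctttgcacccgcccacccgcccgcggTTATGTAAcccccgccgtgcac

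The libraries held 20088012 to 28962671 reads on genes in WT, 29406729 to 55799163 in KO and 28003328 to 49590055 in PBS, so that depth moved with the arm. In bulk libraries such as these, fewer cells of a type and less RNA per cell cannot be told apart. All libraries contained high *H2-Ab1* and *Ccr7*, genes of antigen presentation and of DC migration, with *Ccr7* at 3934 to 6822 CPM. *Clec9a* itself, the driver of the Cre, was low (0 to 8.32 CPM). *Arntl*, the targeted gene, measured 19.9 ± 6.91 CPM (SD over 12 mice) under the label KO and 14.8 ± 3.65 CPM (20 mice) in WT. KO was thus the higher side, by 0.38 ± 0.13 on the log2 scale averaged over time (adjusted p = 0.0197, limma), counted over the whole gene and so without a view of the floxed part alone. The libraries are therefore named by their label. One library, WT ZT3 replicate 3, had the lowest median gene (9.02 CPM) and the highest share of reads in its 10 top genes (16.8%), and it also had the lowest value of all 7 repressor genes among the 5 WT mice of ZT3. The tests in which it takes part were repeated without it. Levels per length, sums of gene lists and correlations were not, and they include it.

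Set per kilobase of merged exons, *Bhlhe40* was the most abundant of the repressors in every arm, at 52.4 ± 15.7 (SD, n = 20) CPM per kb in WT, 66.8 ± 10.9 (n = 12) in KO and 67.2 ± 13.5 (n = 12) in PBS, with no overlap with any other member. *Cry2* (3.48 ± 0.860 CPM per kb in WT) and *Cry1* (2.58 ± 0.801) followed, and then *Per1* (2.43 ± 0.713). *Per3* (0.847 ± 0.439), *Ciart* (0.820 ± 0.420) and *Per2* (0.623 ± 0.367) were lowest. Neighbours in this order differed by less than the SD for *Cry1* and *Per1*, for *Per3* and *Ciart* and for *Ciart* and *Per2* in WT. In KO and PBS *Cry1* stood above *Cry2* and *Per3* was last, where *Cry1* and *Cry2* in KO, and *Ciart* and *Per2* as well as *Per2* and *Per3* in both arms, differed by less than the SD. With the length of the longest transcript or of the coding sequence, *Bhlhe40* stayed first and *Per2* was last in all arms, whereas the order of *Cry1*, *Cry2* and *Per1* changed with the length used. The low members rest on few reads: *Ciart* had between 0 and 191 reads in a library (median 60.5), with 1 PBS library at 0 and 33 of 44 libraries at 1 CPM or more.

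**Figure D1:**
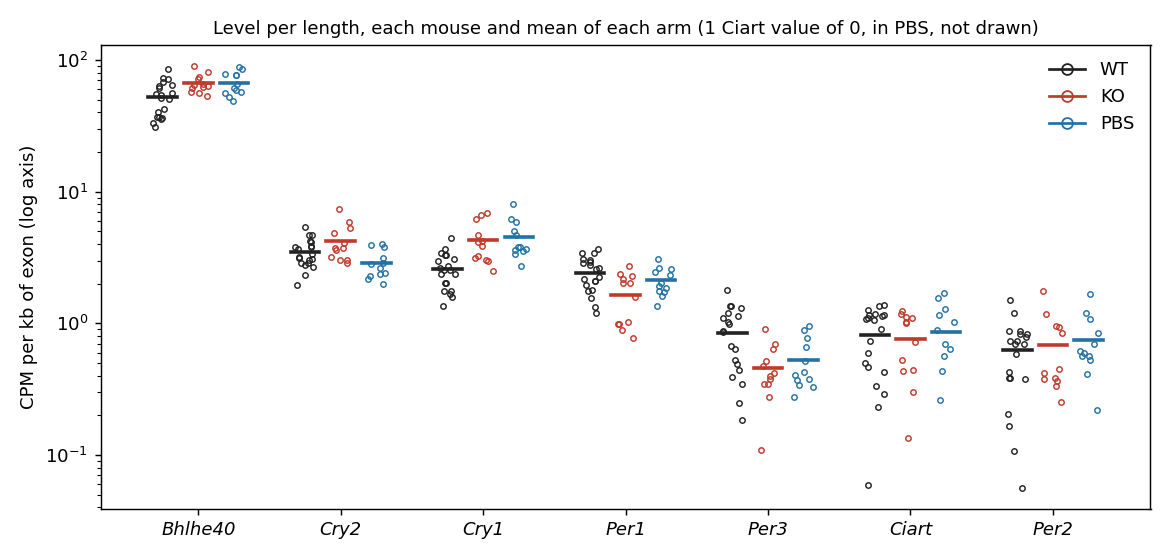
Level of each repressor gene in CPM per kilobase of merged exons, on a log axis. Each circle is 1 mouse (20 WT, 12 KO, 12 PBS) and each bar the mean of an arm, and *Bhlhe40* lies above every other member in every mouse.

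*Per1* had the lowest adjusted p of the period genes in the cosinor of WT. In WT it measured 14.7, 11.7, 6.80, 11.9 and 10.1 CPM in the 5 mice of ZT3 and 20.5, 19.2, 15.6, 19.4 and 16.9 CPM at ZT9. It measured 12.2, 16.1, 16.5, 14.5 and 10.98 CPM at ZT15 and 7.51, 8.77, 17.3, 12.7 and 10 CPM at ZT21. All mice of ZT9 lay above all mice of ZT3, while ZT9 overlapped with ZT15 and, through 1 mouse, with ZT21. In KO the values were 4.97, 4.36 and 5.52 CPM at ZT3, 11.3, 5.56 and 12.3 at ZT9, 13.4, 13 and 11.4 at ZT15 and 8.92, 5.81 and 15.3 at ZT21, so that the 3 mice of ZT3 lay below all others of that arm. In PBS they were 9.03, 7.58 and 14.9, then 13.2, 13.8 and 14.7, then 10.5, 17.5 and 9.67, and 9.89, 10.8 and 11.5 CPM at the same timepoints, which overlapped except for ZT9 over ZT21. Here and below, such separations of timepoints describe the few mice only. The share of all genes that separate in the same way was not computed.

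The cosinor of *Per1*, a fit of a 24 h wave to log2(CPM + 0.5), gave an amplitude of 0.41 ± 0.11 (SE) with its crest at ZT10.7 ± 0.984 h in WT, an adjusted p of 0.295. In KO the amplitude was 0.63 ± 0.17 with a crest at ZT15.03 ± 1.04 h (adjusted p = 0.376), and in PBS 0.22 ± 0.13 (adjusted p = 0.775). The interaction of genotype with time had an adjusted p of 0.257 (0.130 without WT ZT3 replicate 3). A different course of *Per1* in the 2 genotypes was therefore not called.

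*Per2* was low and varied widely between mice of a timepoint. It ranged over 0.331 to 8.76 CPM (median 4.10) in WT, 1.47 to 10.2 CPM (median 2.54) in KO and 1.29 to 9.83 CPM (median 3.55) in PBS. Even at ZT9 of WT the lowest mouse had 0.331 CPM and the highest 8.76 CPM. Its highest mean fell at ZT9 in WT (4.18 ± 3.76 CPM, SD, n = 5), at ZT15 in KO (6.42 ± 4.07, n = 3) and at ZT21 in PBS (5.72 ± 3.78, n = 3). No cosinor of *Per2* had an unadjusted p under 0.05, the adjusted p was 0.913 in WT, 0.568 in KO and 0.90 in PBS, and SEs of 0.28, 0.27 and 0.26 on the log2 scale leave room for rhythms of the size seen in *Per1*.

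*Per3*, the period protein that is dispensable for the core oscillation, had in WT the values 8.37, 3.78, 1.78, 9.81 and 4.75 CPM at ZT3 and 13.1, 17.2, 12.6, 10.5 and 9.53 at ZT9. They were 3.30, 11.5, 2.38, 5.07 and 4.21 CPM at ZT15 and 6.14, 13.1, 10.95, 8.30 and 6.45 at ZT21. The mean was highest at ZT9 and lowest at ZT15, with ZT9 overlapping ZT3, ZT15 and ZT21 through 1 or more mice each. In KO *Per3* measured 8.73, 3.32 and 1.06 CPM at ZT3, 4.53, 2.66 and 4.98 at ZT9, 3.998, 3.82 and 6.67 at ZT15 and 6.15, 3.63 and 3.33 at ZT21. In PBS it measured 3.65, 3.27 and 3.90, 3.18, 4.13 and 9.14, 8.61, 6.39 and 2.67, and 3.59, 7.48 and 4.998 CPM in the same order. All 5 WT mice of ZT9 lay above all KO and PBS mice of ZT9. The F test over the 4 timepoints of WT gave an adjusted p of 0.0802, while the cosinor gave an adjusted p of 0.862. Neither interaction had an unadjusted p under 0.05 (adjusted p = 0.409 for genotype and 0.605 for treatment).

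**Figure D2:**
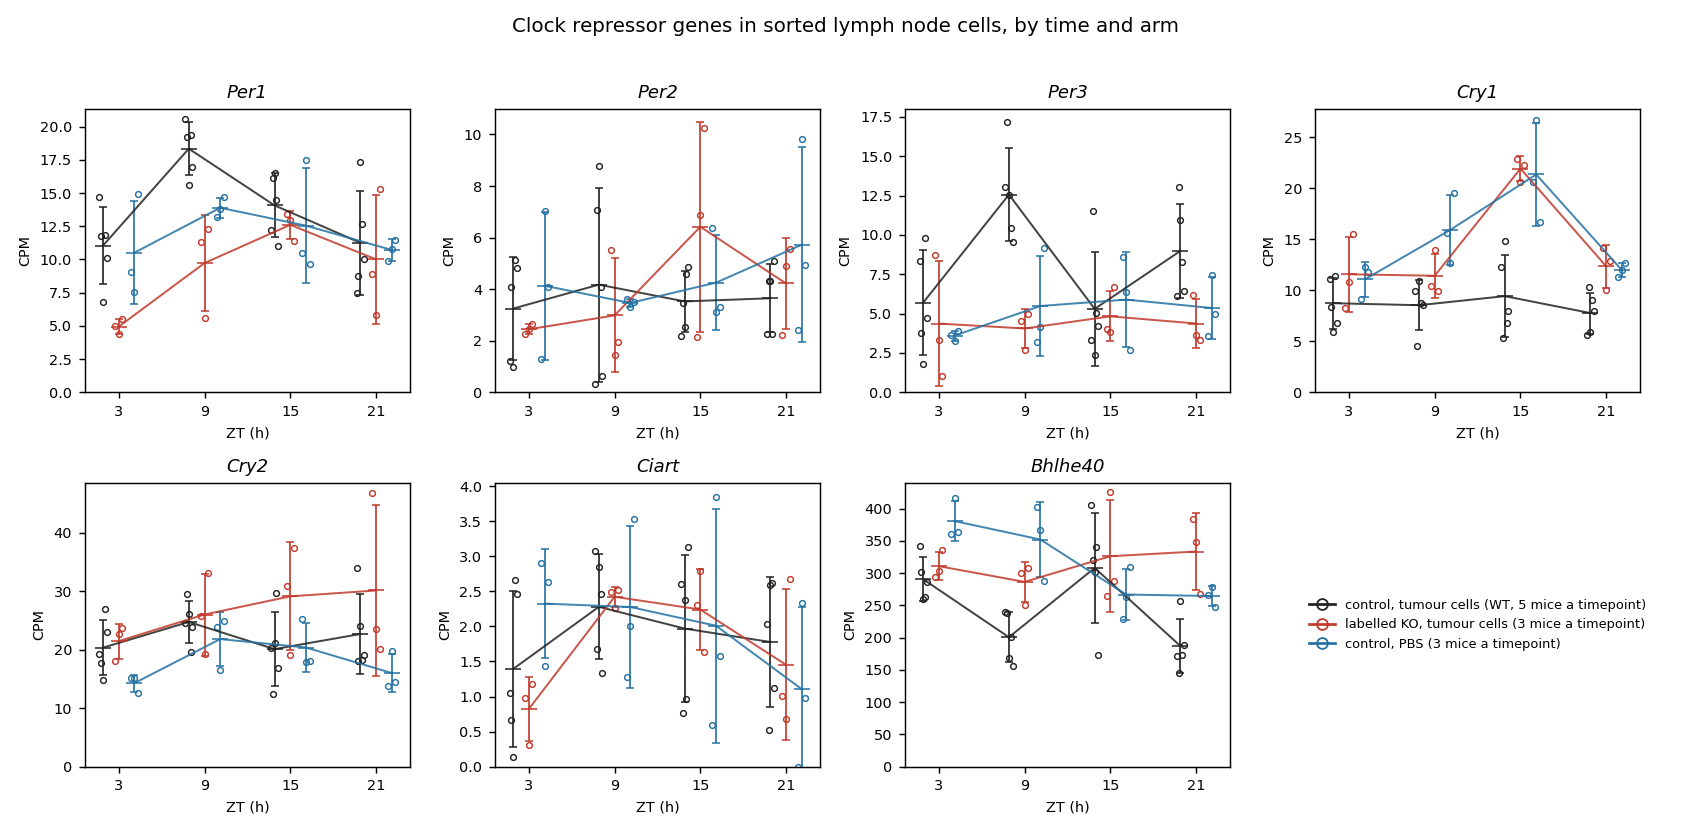
CPM of the 7 repressor genes against ZT in hours, on linear axes from 0. Circles are single mice (WT black, KO red, PBS blue, drawn side by side), dashes are means and bars SD over 5 WT or 3 KO or PBS mice. The mean of *Cry1* is highest at ZT15 in KO and PBS, and the means of *Bhlhe40* in WT are higher at ZT3 and ZT15 than at ZT9 and ZT21.

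The cryptochrome genes, whose proteins are the strongest inhibitors of BMAL1–CLOCK, are taken in turn. *Cry1* in WT measured 11.1, 8.42, 5.91, 11.4 and 6.82 CPM at ZT3, 9.94, 4.55, 10.96, 8.74 and 8.54 at ZT9, 12.3, 5.31, 14.8, 6.76 and 7.94 at ZT15 and 5.61, 10.3, 5.92, 9.08 and 7.97 at ZT21, and every pair of timepoints overlapped. In KO it measured 8.30, 10.9 and 15.6 CPM at ZT3, 10.4, 13.9 and 9.94 at ZT9, 22.9, 20.6 and 22.3 at ZT15 and 14.2, 10.03 and 12.9 at ZT21, where ZT15 lay above every mouse of the other timepoints. In PBS it measured 9.16, 12.3 and 11.8 at ZT3, 15.6, 12.7 and 19.5 at ZT9, 20.6, 26.7 and 16.7 at ZT15 and 11.3, 12 and 12.6 at ZT21, with ZT9 and ZT15 above ZT3 and ZT21 in every mouse. At ZT15 the highest WT mouse (14.8 CPM) was below the lowest KO mouse (20.6 CPM) and the lowest PBS mouse (16.7 CPM). The cosinor amplitude of *Cry1* was 0.47 ± 0.14 in KO with a crest at ZT15.4 ± 1.14 h (adjusted p = 0.408). It was 0.49 ± 0.10 in PBS with a crest at ZT13.5 ± 0.818 h (adjusted p = 0.596), and 0.062 ± 0.14 in WT (adjusted p = 0.966). That these courses differ between arms was not called, since the interaction had an adjusted p of 0.404 for genotype and 0.635 for treatment.

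The values of *Cry2* lay at 12.4 to 34.1 CPM (median 20.7) in WT, 18.1 to 46.8 CPM (median 23.6) in KO and 12.6 to 25.3 CPM (median 17.2) in PBS. In PBS the 3 mice of ZT3 (15.1, 15.2 and 12.6 CPM) lay below those of ZT9 (23.9, 16.6 and 24.98) and of ZT15 (25.3, 17.8 and 18.1), and the cosinor had an amplitude of 0.32 ± 0.11 with a crest at ZT12.2 ± 1.26 h (adjusted p = 0.667). In WT and KO the adjusted p of *Cry2* was 0.925 and 0.794.

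*Ciart*, which encodes a repressor that recruits histone deacetylase to BMAL1–CLOCK, was the member with the fewest reads. It ranged over 0.133 to 3.14 CPM (median 2.21) in WT, 0.302 to 2.79 CPM (median 1.95) in KO and 0 to 3.85 CPM (median 1.79) in PBS. In KO the mice of ZT3 (0.983, 0.302 and 1.18 CPM) lay below those of ZT9 (2.49, 2.26 and 2.52) and ZT15 (2.30, 2.79 and 1.63), and overlapped with ZT21 (1.001, 0.676 and 2.68). The cosinor of *Ciart* in KO had an amplitude of 0.66 ± 0.19 with a crest at ZT12.8 ± 1.11 h (adjusted p = 0.396), and the adjusted p was 0.768 in WT and 0.771 in PBS.

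*Bhlhe40*, a basic helix–loop–helix repressor that competes for E-boxes, had higher means at ZT3 and ZT15 than at ZT9 and ZT21 in WT. It measured 342, 301, 259.5, 263 and 287 CPM at ZT3 and 241, 238, 169, 200.4 and 156 at ZT9. It measured 405, 321, 301, 340.2 and 173 CPM at ZT15 and 172, 145, 257, 173 and 188 at ZT21. All mice of ZT3 lay above all of ZT9 and of ZT21, and ZT15 did so too but for 1 mouse of 173 CPM. KO mice measured 294, 303 and 335 CPM at ZT3, 301, 251 and 308 at ZT9, 265, 426 and 288 at ZT15 and 384, 349 and 268 at ZT21, with every pair of timepoints overlapping. PBS mice measured 361, 417 and 364 CPM at ZT3, 402, 367 and 287 at ZT9, 229, 262 and 309 at ZT15 and 267, 279 and 248 at ZT21. Here ZT3 lay above ZT15 and ZT21 in every mouse.

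The F test over time of *Bhlhe40* in WT had an adjusted p of 0.0539, and its cosinor one of 0.973. The F test was called under 6 of 9 other settings, among them median-of-ratios scaling (adjusted p = 0.0182) and an intensity trend (0.0166). In PBS the cosinor had an amplitude of 0.33 ± 0.081 with a crest at ZT5.51 ± 0.949 h (adjusted p = 0.658). The interaction of treatment with time had an adjusted p of 0.306, and that of genotype with time one of 0.296. In the WT mice, the summed level of 11 immediate early genes (*Fos*, *Jun*, *Egr1*, *Nr4a1* and others that handling of cells can induce) was likewise higher at ZT3 and ZT15 than at ZT9 and ZT21, with means of 6123 CPM at ZT3, 4336 at ZT9, 6544 at ZT15 and 4524 at ZT21. Of these genes 4 of 11 were called in the F test over time in WT, beside 5.28% of all genes (11% without WT ZT3 replicate 3). In PBS their sum had means of 10550 CPM at ZT3, 9937 at ZT9, 9536 at ZT15 and 7858 at ZT21. There 4 of 11 had an unadjusted p under 0.05 in the cosinor, beside 7.38% of all genes. The means of 3 lists of cell type markers were also higher at ZT3 and ZT15 than at ZT9 and ZT21 in WT. The sum of 5 granulocyte and macrophage markers had means of 74.8 CPM at ZT3, 50.3 at ZT9, 95.3 at ZT15 and 53.1 at ZT21, with 3 of 5 called in the same F test. That of 6 general DC markers had means of 17360 CPM at ZT3, 14140 at ZT9, 20060 at ZT15 and 15590 at ZT21 (0 of 6 called), and that of 6 markers of type 2 conventional DCs 205 CPM at ZT3, 182 at ZT9, 229 at ZT15 and 178 at ZT21 (3 of 6 called). A list of 7 glucocorticoid genes held the receptor gene *Nr3c1* and responsive genes, *Dusp1* among them. Its sum had means of 1847 CPM at ZT3, 1720 at ZT9, 2111 at ZT15 and 1673 at ZT21 (0 of 7 called). The part of these genes in the values of *Bhlhe40* was not tested.

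No member was called in the cosinor or in the F test over timepoints. In the cosinor, 1 of 7 members in WT had an unadjusted p under 0.05 (*Per1*), beside 9.2% of all genes tested, 3 of 7 in KO (*Per1*, *Cry1*, *Ciart*), beside 10.5%, and 3 of 7 in PBS (*Cry1*, *Cry2*, *Bhlhe40*), beside 7.38%. With single libraries left out, the count was 2 in 3 of 12 fits of KO and in 8 of 12 of PBS. In 1 fit of all 44 libraries it was 2 in KO and 1 in PBS. No member passed after adjustment in limma, beside 0.0251% of all genes in WT, 0% in KO and 0% in PBS. Without WT ZT3 replicate 3 the counts of members in WT were still 1 and 0 of 7, beside 19.6% of all genes unadjusted and 0.359% adjusted. The median amplitude of the members was 0.22 in WT, 0.47 in KO and 0.32 in PBS on the log2 scale, against 0.14, 0.22 and 0.18 over all genes tested. The F test over timepoints gave 3 of 7 in WT (*Per1*, *Per3*, *Bhlhe40*) beside 23.1% of all genes, 3 of 7 in KO (*Per1*, *Cry1*, *Ciart*) beside 10.3%, and 2 of 7 in PBS (*Cry1*, *Bhlhe40*) beside 7.44%, all unadjusted. With single libraries left out, this count was lower in 8 of 12 fits of KO, down to 1. In PBS it was lower in 1 and higher in 2 of 12 fits, between 1 and 3. After adjustment none of the members was called, beside 5.28% of all genes in WT, 0% in KO and 0% in PBS. In WT the adjusted p of *Per1* was 0.0695, and without WT ZT3 replicate 3 the adjusted p of *Per1* was 0.0492 and that of *Bhlhe40* 0.0416, both then called, with *Per3* at 0.0533. The share of all genes called was then 11%, with 1313 genes against 632. Leaving out WT ZT15 replicate 1 gave 278 genes, the fewest.

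**Figure D3:**
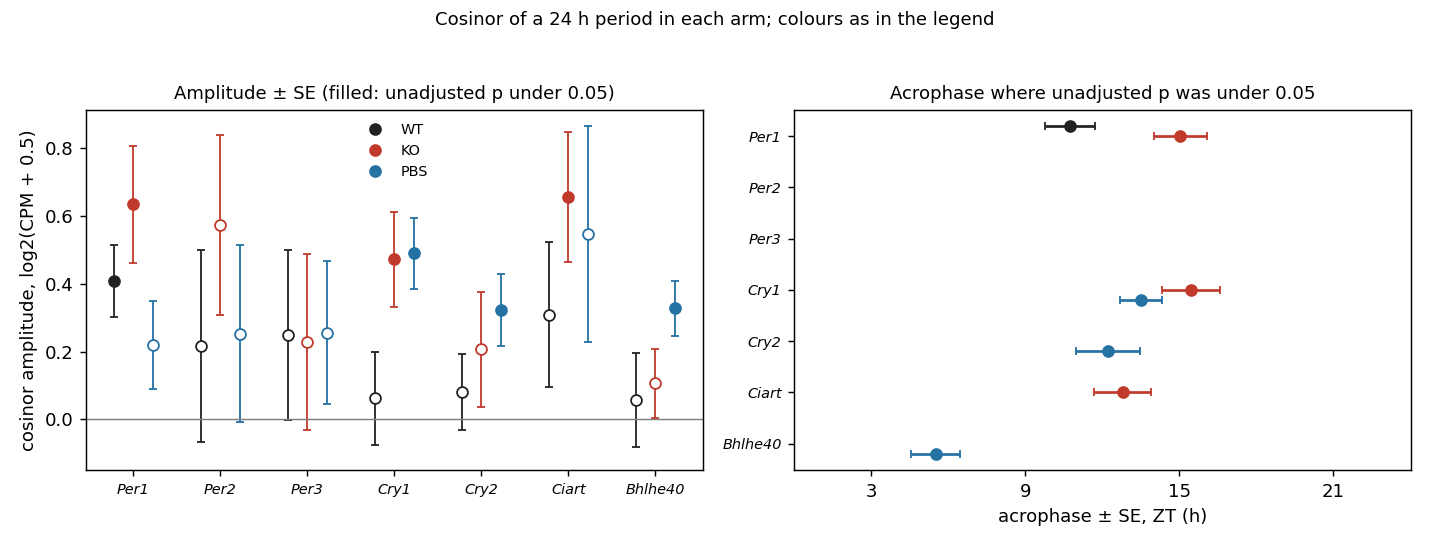
Left, cosinor amplitude in log2(CPM + 0.5) with SE for each member and arm, filled where the unadjusted p was under 0.05. Right, ZT of the crest with SE in hours for those fits only, from ZT5.51 for *Bhlhe40* in PBS to ZT15.4 for *Cry1* in KO.

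A cosinor shared by all 44 libraries, with a mean for each arm, was added after the data were seen. It gave *Per1* an amplitude of 0.36 ± 0.084 with a crest at ZT12.6 ± 0.893 h (adjusted p = 0.0750). *Cry1* had an amplitude of 0.27 ± 0.085 with a crest at ZT14.1 ± 1.20 h (adjusted p = 0.310) and *Ciart* 0.39 ± 0.15 at ZT11.3 ± 1.46 h (adjusted p = 0.475). These 3 of 7 members stand beside 10% of all genes at the unadjusted level. Their count was 2 in 24 of the 44 fits that left out a single library. Without WT ZT3 replicate 3 *Ciart* was no longer among them, beside 13.2% of all genes. After adjustment none of 7 was called, beside 0.451% of all genes. The 54 genes behind this last share became 95 (0.794%) without WT ZT3 replicate 3 and 34 without WT ZT15 replicate 1. *Per3* and *Bhlhe40* had adjusted p of 0.920 and 0.914. For comparison, *Dbp*, an output gene of BMAL1–CLOCK, had an amplitude of 0.54 ± 0.047 with a crest at ZT13.9 in this fit and was called (adjusted p = 1.2e-09). The deposited values of *Dbp* were not whole multiples of 1 read in 43 of the 44 libraries.

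The study contrasts engraftment at ZT9 and ZT21. In WT, *Per1* was higher at ZT9 by 0.73 (95% confidence interval 0.30 to 1.16) on the log2 scale, with an adjusted p of 0.176. It was the only 1 of 7 members with an unadjusted p under 0.05 in this contrast, beside 11.5% of all genes. In KO 0 of 7 did, beside 10.9%, and in PBS 1 of 7, beside 5.32%, which was *Bhlhe40* (higher at ZT9 by 0.40, interval 0.029 to 0.77). This count in PBS was 0 of 7 without PBS ZT9 replicate 1, PBS ZT21 replicate 1 or PBS ZT21 replicate 3 and in the fit of all 44 libraries, 2 without PBS ZT9 replicate 2 and 3 without PBS ZT21 replicate 2. Of the immediate early genes 6 of 11 also had an unadjusted p under 0.05 in PBS, all higher at ZT9, with a median difference of 0.50. Their sum in PBS was 9330 to 10810 CPM at ZT9 and 7294 to 8219 at ZT21. Their part in the difference of *Bhlhe40* was not tested. In WT the sum of 5 NK cell markers was 14.4 to 17.7 CPM at ZT9 and 28.7 to 32.5 at ZT21, without overlap. That of 9 T cell markers was 552 to 702 CPM at ZT9 and 704 to 870.0 at ZT21. *Nkg7* (-1.06 ± 0.20, adjusted p = 0.0332) and *Cd3g* (-0.89 ± 0.15, adjusted p = 0.0184) were called lower at ZT9, as 1 of 5 and 1 of 9 markers. Of the T cell markers 5 of 9 had an unadjusted p under 0.05, all lower at ZT9, and their median difference was -0.45. Of 6 markers of type 2 conventional DCs 3 did, all lower, with a median of -0.51. The median difference of the 5 NK cell markers was -0.019, and *Nkg7* was the only 1 of them with an unadjusted p under 0.05. The sum of 6 B cell markers overlapped, with 0 of 5 tested ones at an unadjusted p under 0.05 (36.03 to 50.5 CPM at ZT9 and 37.3 to 52.6 at ZT21). The part of these cells in the difference of *Per1* was not tested. After adjustment no member was called, beside 0.226% of all genes in WT, 0.00836% in KO and 0% in PBS. The 27 genes called in WT became 3 without WT ZT9 replicate 2 and 67 without WT ZT3 replicate 3, with 0 members called in either.

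Between ZT3 and ZT15, the other 12 h pair, 0 of 7 members had an unadjusted p under 0.05 in WT, beside 8.72% of all genes, and still 0 of 7 without WT ZT3 replicate 3, beside 19%. In KO 3 of 7 did, beside 8.06%, all of them lower at ZT3, as were 771 of the 964 genes behind that share, with differences of *Per1* of -1.27 (interval -2.04 to -0.50), *Cry1* of -0.94 (-1.46 to -0.41) and *Ciart* of -1.10 (-1.93 to -0.26). The sums of several lists were also lower at ZT3 than at ZT15 in KO, without overlap. They were 636 to 811 against 855 to 1065 CPM for T cell markers and 105 to 110.2 against 147 to 303 for granulocyte and macrophage markers. For the glucocorticoid genes, *Nr3c1* included, they were 2224 to 2710 against 3232 to 3579. Of their genes 2 of 9, 1 of 5 and 2 of 7 had an unadjusted p under 0.05, and their part in the differences of the members was not tested. In PBS 3 of 7 members had an unadjusted p under 0.05, beside 9.6%, with differences of -0.90 for *Cry1*, -0.48 for *Cry2* and 0.52 for *Bhlhe40*, the last higher at ZT3. With single PBS libraries left out, this count was lower in 8 and higher in 1 of 12 fits, between 2 and 4. The 1148 genes behind that share became 760 without PBS ZT3 replicate 2 and 1751 without PBS ZT15 replicate 3. No member was called after adjustment, beside 0% of all genes in each of the 3 arms (0.769% in WT without WT ZT3 replicate 3).

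Averaged over time, 4 of 7 members differed between the libraries labelled KO and WT at an adjusted p under 0.05 (limma), beside 32% of all genes. *Cry1* was higher in KO, at 14.3 ± 5.06 CPM (SD, n = 12) against 8.63 ± 2.67 (n = 20), a difference of 0.69 (95% interval 0.38 to 1.00) on the log2 scale. Its adjusted p was 0.0009. *Bhlhe40* was higher by 0.39 (0.15 to 0.64, adjusted p = 0.0111), at 314 ± 51.3 CPM against 247 ± 73.8, and lost the call under median-of-ratios scaling (0.30, adjusted p = 0.0599). *Per1* was lower in KO, with a difference of -0.59 (-0.89 to -0.28, adjusted p = 0.00337), at 9.32 ± 3.91 CPM against 13.7 ± 4.02, and so was *Per3*, with -0.74 (-1.25 to -0.23, adjusted p = 0.0223), at 4.41 ± 2.02 against 8.13 ± 4.22. *Per3* lost the call without KO ZT3 replicate 3, where its adjusted p was 0.0524. With the timepoints pooled, the groups overlapped for each of these genes. At single timepoints they lay apart for *Per1* at ZT3 and ZT9, *Per3* at ZT9, *Cry1* at ZT15 and *Bhlhe40* at ZT9 and ZT21. They overlapped at the other timepoints, and the share of all genes apart in this way was not computed.

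Thus 2 of 7 members were higher in KO, beside 22.3% of all genes, and 2 of 7 lower, beside 9.67%. The median difference of the members was 0.16 and that of all genes 0.098 on the log2 scale. Of the called genes, 69.8% were higher in KO with the deposited scaling and 50.4% with median-of-ratios scaling, under which the directions of the 4 members stayed as given. *Cry2* (0.25, -0.026 to 0.53), *Per2* (0.16, -0.47 to 0.78) and *Ciart* (-0.055, -0.51 to 0.40) were not called, and their intervals include 0.

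Between WT mice with tumour cells and PBS mice, 2 of 7 members were called, beside 37% of all genes, both lower with tumour cells. *Cry1* differed by -0.77 (95% interval -1.07 to -0.47, adjusted p = 0.00011), at 8.63 ± 2.67 CPM in WT (SD, 20 mice) against 15.1 ± 5.03 in PBS (12 mice). *Bhlhe40* differed by -0.39 (-0.63 to -0.15, adjusted p = 0.00890), at 247 ± 73.8 against 316 ± 63.4 CPM. The 2 of 7 lower members stand beside 24.2% of all genes and the 0 of 7 higher ones beside 12.8%. *Per3* was higher with tumour cells by 0.53 (0.064 to 1.00) and *Cry2* by 0.27 (0.025 to 0.51), with adjusted p of 0.0681 and 0.0770, and both were called under median-of-ratios scaling (0.0383 and 0.0260). *Per3* was also called without WT ZT3 replicate 3 (adjusted p = 0.0249). *Per1* (-0.071 to 0.41), *Per2* (-0.95 to 0.29) and *Ciart* (-0.55 to 0.58) had intervals that include 0. The median of the members was 0.013 and that of all genes -0.040, and 34.6% of the called genes were higher with tumour cells with the deposited scaling and 45.8% with median-of-ratios scaling.

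**Figure D4:**
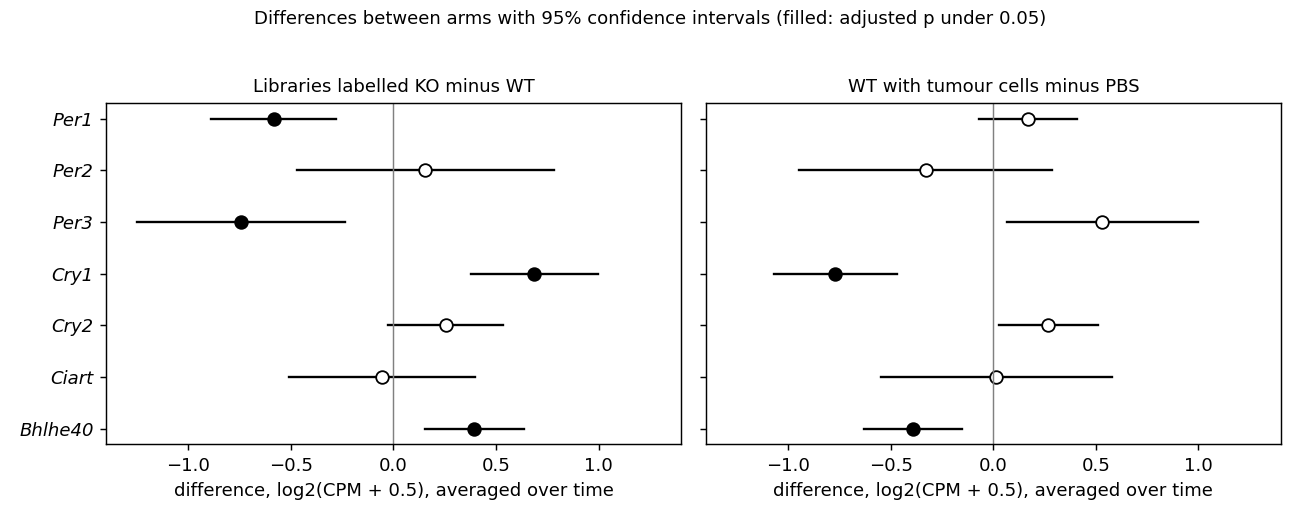
Difference of each member between arms, averaged over time, in log2(CPM + 0.5) with 95% confidence intervals, filled where the adjusted p was under 0.05. Left, libraries labelled KO minus WT; right, WT with tumour cells minus PBS. WT mice enter both, and *Cry1* and *Bhlhe40* are lower in WT in both.

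Both comparisons share the 20 WT libraries, which were on the whole shallower than those of KO and PBS, so that an arm, its depth and any batch that went with it cannot be told apart. Other contents of the sort moved with the arm as well. The summed level of 5 NK cell markers was 14.4 to 50.1 CPM in WT, 34.5 to 148 in KO and 75.3 to 555 in PBS, and all 5 were called lower in WT than in PBS and 4 of 5 higher in KO than in WT. *Ncr1* reached 0 in WT and 39.5 CPM in PBS. The sum of 9 T cell markers was 552 to 870.0 CPM in WT, 636 to 1171 in KO and 661 to 1308 in PBS, of which 4 were higher and 1 lower in KO than in WT, and 1 higher and 7 lower in WT than in PBS. Markers of granulocytes and macrophages (5 genes) summed to 35.2 to 111, 65.8 to 303 and 111 to 190.4 CPM, those of B cells (6) to 29.1 to 52.6, 30.5 to 123 and 43.9 to 77.4 CPM, and those of plasmacytoid DCs (3) to 152 to 229.5, 127 to 274 and 217 to 313 CPM, in WT, KO and PBS. Of the DC subsets, 6 markers of conventional DCs of type 1 summed to 202 to 303, 226 to 302 and 237 to 367 CPM and 6 of type 2 to 137 to 283, 143 to 629 and 190.5 to 374 CPM. The 9 markers of migratory DCs (19400 to 26840 CPM in WT, 19610 to 24990 in KO and 15760 to 24760 in PBS) overlapped between the arms, as did the 6 general DC markers (12710 to 24720, 13990 to 24520 and 17010 to 23910) and 3 Langerhans cell markers (102 to 147, 131 to 198 and 128 to 169.7). Among the tested markers of these types, the calls were 3 higher and 0 lower in KO and 0 higher and 3 lower in WT against PBS for granulocytes and macrophages (5 tested). They were 1 higher and 0 lower in KO and 0 higher and 3 lower in WT against PBS for B cells (5 tested) and 1 higher and 0 lower in KO and 0 higher and 2 lower in WT against PBS for plasmacytoid DCs (3 tested). For conventional DCs they were 2 higher and 1 lower in KO and 1 higher and 5 lower in WT against PBS in type 1 (6 tested) and 4 higher and 0 lower in KO and 0 higher and 4 lower in WT against PBS in type 2 (6 tested). They were 0 higher and 2 lower in KO and 5 higher and 0 lower in WT against PBS for migratory DCs (9 tested), 0 higher and 0 lower in KO and 0 higher and 3 lower in WT against PBS for general DC markers (6 tested) and 2 higher and 0 lower in KO and 0 higher and 2 lower in WT against PBS for Langerhans cells (3 tested). Melanoma markers (4, of which 1 was tested and not called) summed to at most 14.1 CPM. The part of these cells in the differences of the repressors was not tested.

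Other genes of the clock and of pathways that act on it were compared as lists, beside the 32% of all genes called in KO against WT and the 37% in WT against PBS. Of 11 tested genes among the activators, nuclear receptors and output factors of the clock, 5 were higher and 1 lower in KO than in WT, and 1 was higher and 6 lower in WT than in PBS. *Nr1d1*, which encodes the repressor REV-ERBα of *Arntl*, was higher in KO than in WT by 1.02 ± 0.24 (SE, log2 scale, adjusted p = 0.00139) and lower in WT than in PBS with -1.61 ± 0.26 (adjusted p = 1.26e-05). *Rora*, which encodes an activator that competes with REV-ERBs, was higher in KO (1.12 ± 0.14) and lower in WT than in PBS (-1.58 ± 0.14), and the output factor *Hlf* likewise (1.47 ± 0.27 and -2.0 ± 0.19). *Dbp* was lower in KO with -0.31 ± 0.08 (adjusted p = 0.00424) and did not differ between WT and PBS beyond its error (-0.043 ± 0.081), and *Nr1d2* was called in neither (-0.093 ± 0.19 and 0.027 ± 0.20). *Arntl* was lower in WT than in PBS with -0.52 ± 0.12 (adjusted p = 0.00113). Over time within WT, 2 of 11 partner genes were called in the F test, beside 5.28% of all genes, and *Dbp* was 1 of them (adjusted p = 0.00560).

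Beside the same shares of all genes, of 13 tested genes for the turnover of PER and CRY proteins (kinases, ubiquitin ligases and their like) 0 were higher and 3 lower in KO than in WT, namely *Prkaa1* (-0.90 ± 0.12), *Usp7* (-0.50 ± 0.12) and *Gsk3b* (-0.23 ± 0.069). In WT against PBS 3 were higher and 1 lower, among them *Prkaa1* (0.29 ± 0.078), a subunit of the AMP kinase that marks CRY for degradation, and *Usp7* (0.50 ± 0.14), a deubiquitinase of CRY. Of 9 co-repressor genes, 3 were higher and 1 lower in KO, with *Hdac2* at 0.38 ± 0.056 and *Tbl1x* at -0.37 ± 0.10, and 1 higher and 2 lower in WT than in PBS. Of the 7 glucocorticoid genes, *Nr3c1* included, 4 were higher and 1 lower in KO, with *Tsc22d3* (0.96 ± 0.091) at the lowest p. In WT against PBS 0 were higher and 4 lower, with *Dusp1* (-0.64 ± 0.079) at the lowest p. Of 11 immediate early genes, 8 were higher and 1 lower in KO, and 2 higher and 9 lower in WT than in PBS, with *Nr4a1* at 1.92 ± 0.19 and -2.44 ± 0.18. Their sum was 3735 to 7174 CPM in WT, 6723 to 10440 in KO and 7294 to 12420 in PBS, and it moved between the arms in the direction of *Bhlhe40*. *Cry1* and the calls of NK cell and type 2 conventional DC markers went the same way. The part of any of these in the differences of *Bhlhe40* was not tested.

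In the tests of a course that differs between arms, 1 of 7 members had an unadjusted p under 0.05 for genotype (*Per1*), beside 18.3% of all genes, and 1 of 7 for treatment (*Bhlhe40*), beside 11.9%. The count for genotype was 0 of 7 in 15 and 2 of 7 in 4 of the 32 fits that left out a single library, so that it depended on single mice. That for treatment was 0 of 7 in 1 and 2 of 7 in 1 of 32 such fits. None was called after adjustment, beside 0.0502% and 0% of all genes. For genotype that share was 2.6% without WT ZT3 replicate 3 (311 genes against 6), and for treatment 38 genes were called without WT ZT15 replicate 2, again with 0 of 7 members.

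The genes whose levels went most closely with a member were sought over the 44 libraries, each arm centred on its own mean, by Pearson's r. All points share the scaling to library size, and r is given as a description. *Bhlhe40* had the closest companions, *Csrnp1* (r = 0.836), *Dusp1* (0.826) and *Socs3* (0.826). *Cry2* went with *Polrmt* (0.738), *Slain2* (0.732) and *Nedd1* (0.718), and *Per3* with *Akap9* (0.728), *Rbm25* (0.724) and *Paxbp1* (0.716). The r of the other members was lower, with *Tsc22d3* (0.617), *Uap1l1* (0.616) and *Dbp* (0.613) for *Per1*, *Sdc1* (0.544), *Dbp* (0.534) and *Rasd2* (0.525) for *Cry1*, *Arhgap11a* (0.657), *Map4k1* (0.597) and *Srcap* (0.596) for *Per2*, and *Rhot2* (0.671), *Lrrfip2* (0.639) and *Utp18* (0.616) for *Ciart*. No repressor was among the 3 closest genes of another. Over the 12 condition means, *Socs3* and *Nedd1* were again among the 3 closest of *Bhlhe40* and *Cry2*, and no other of these genes was among the 3 closest of its member.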

How the data were processed

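The authors prepared 1 library per mouse (44 mice) from sorted CD45+CD11c+MHCIIhigh cells, mapped the reads with STAR to mm10, obtained gene counts with HTSeq 0.9.1 and used edgeR to scale for library size, and the deposited table holds the resulting CPM. Each column adds up to 1000000. Between 87.5% and 89.3% of the values of a library were whole multiples of 1 read (within 0.01), too few for a test on counts, which was not run. Genes that reached 1 CPM in 5 or more libraries (11963) were fitted on log2(CPM + 0.5) in limma 3.58.1 (R 4.3.3), with Benjamini–Hochberg adjustment over all of them. A gene was called at an adjusted p under 0.05, and members were also counted at an unadjusted p under 0.05. Fold changes on this scale understate those of low genes. Each arm had its own cosinor (24 h), F test over timepoints and contrasts of timepoints. KO was compared with WT, and WT with PBS, with timepoint as a term, followed by interactions with time. The cosinor shared by all arms was added after the data were seen. The fits were also run on simulated data with independent normal noise and 1 SD per gene in all arms. These held no outlying library, so they do not give the power of the fits on the real libraries. Other steps used numpy 2.4.6, pandas 2.3.3 and matplotlib 3.10.9 in Python 3.11.15. Groups came from the sample labels, and no pair of libraries was identical. Which mice shared an experiment or a sequencing lane is not given in the sources used here. Alternatives were pseudocounts of 1 and 0.1, median-of-ratios scaling, no filter or a mean of at least 10 CPM, array weights, an intensity trend, a replicate block, 1 fit of all libraries and leaving out each library. The members and gene lists were chosen with earlier results of these data known. All members were described whatever their values. Of each other list, at most the 3 called genes of lowest p in a comparison were named, besides *Arntl*, *Nr1d1*, *Nr1d2* and *Dbp*, and for each member the 3 genes of highest r. One gene that this rule would name is not reported here.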

Additional observations from a re-analysis of the deposited data

How the results depend on the processing

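Of 3449 values of single members under the alternatives, 41 crossed the threshold of the adjusted p. Of 1544 differences with a sign, 66 changed it, and 0 of these were called under either setting. The F test over time in WT, with 0 of 7 members called, gave 1 with a pseudocount of 1, 1 with median-of-ratios scaling, 2 with a mean of at least 10 CPM, 3 with array weights, 2 with an intensity trend, 1 in a fit of all 44 libraries and between 0 and 2 when single libraries were left out, with 2 without WT ZT3 replicate 3, 2 without WT ZT21 replicate 3, and 1 each without WT ZT3 replicate 1, WT ZT3 replicate 4, WT ZT15 replicate 2 and WT ZT15 replicate 5. Array weights gave 1 call in ZT9 against ZT21 in WT (*Per1*), and the fit of all 44 libraries 1 in ZT3 against ZT15 in KO (*Per1*, adjusted p = 0.0376). For WT against PBS, 2 calls became 4 with median-of-ratios scaling and 4 with array weights, and lay between 2 and 4 with single libraries left out, with 4 without PBS ZT15 replicate 1, *Per3* added without WT ZT3 replicate 3, WT ZT15 replicate 3 or PBS ZT15 replicate 2, and *Cry2* without WT ZT15 replicate 2. The shared cosinor, with 0 calls, gave 1 (*Per1*) with median-of-ratios scaling, 1 with a mean of at least 10 CPM, 1 with array weights and between 0 and 1 with single libraries left out (1 without KO ZT9 replicate 2, KO ZT21 replicate 3 or PBS ZT3 replicate 3), but could not be set up in the fit of all 44 libraries, which it already is. With the replicate number as a block, KO against WT had 2 calls, without *Bhlhe40* (0.30, adjusted p = 0.0905) and *Per3* (-0.75, adjusted p = 0.05003), and WT against PBS 1, without *Bhlhe40* (-0.30, adjusted p = 0.0838). Same-numbered mice did not deviate together (median r of 0.0024 over 210 pairs, 9 of them over 0.1), so the numbers were not taken as pairs. The cause of these changes was not tested. *Per2*, *Per3* and *Ciart* do not reach a mean of 10 CPM and had no value under that filter. Promoter counts also included windows up to 50 bases past the start, in which 7.15% of promoters held CACGTG.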
